A study of Mus musculus with 11 samples.

Results

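Estrogen and progesterone act on the mammary epithelium through a small number of receptor-bearing luminal cells, which pass the signal to their neighbours as secreted factors. The genes described here are 7 parts of that relay: the estrogen receptor alpha gene Esr1, the progesterone receptor gene Pgr, the amphiregulin gene Areg, the Wnt ligand gene Wnt4, the RANK ligand gene Tnfsf11, its receptor gene Tnfrsf11a and the transcriptional coregulator gene Cited1. They were chosen by name, not by their values, and are 7 of 14847 named genes in an expression table of mouse mammary gland. In that table they hold 21 of 30305 loci, a locus being a stretch of assembled transcript with its own value.

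By the labels, the series has 11 samples of STAT5A binding, the histone mark H3K4me3, inputs and RNA. The binding and histone samples are from days 6 and 13 of pregnancy and from parturition, and the RNA is from parturition only. At day 13 the H3K4me3 sample and its input carry the label MECs. The values below come from 1 RNA-seq library of mammary gland collected at parturition, without lymph nodes, from wild-type mice of the mixed background 129SV::FVB/N::C57BL/6. The other 10 samples were not used here. How many animals the library stands for is not given in the labels. With 1 library there is no replicate spread, no difference between genes was tested, and every ratio describes this library alone.

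In mammary biology, estrogen binding to Esr1 induces Pgr and releases amphiregulin, the EGF receptor ligand that drives duct growth at puberty. Progesterone binding to Pgr raises Wnt4 and the RANK ligand in the same cells, and these act on basal and receptor-negative luminal cells to drive side branching and alveolar growth in pregnancy. Cited1 is a coactivator of Esr1 in the luminal cells. Milk secretion starts as progesterone falls at parturition, the stage sampled here.

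Levels are in FPKM, in which fragment numbers are divided by transcript length and library size, so that genes of different length can be set beside each other. The depth of the library is unknown. A gene takes the FPKM of its highest locus. Tnfrsf11a, the RANK gene, stood highest of the 7 at 13.3 FPKM, whereas Tnfsf11, the gene of its ligand, stood at 0.033, above Areg only. Cited1 came next to Tnfrsf11a at 6.93 FPKM, followed by Esr1 at 4.16 and Wnt4 at 1.24. Pgr stood at 0.31 FPKM, and the single locus of Areg was listed at 0.

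Of the 7 genes, 4 reached 1 FPKM, against 73.6% of all named genes. At 5 FPKM the count was 2, Tnfrsf11a and Cited1, against 44.3% of all named genes. At 0.5 FPKM it was 4 again, against 82.3%. Tnfrsf11a had a higher level than 78.3% of named genes, Cited1 than 63.8%, Esr1 than 51.5% and Wnt4 than 29.3%. Pgr exceeded 13.3% of named genes and Tnfsf11 4.43%, so the receptor for progesterone and the RANK ligand both lay in the low tail. The median over the 7 genes was 1.24 FPKM, and that over all named genes 3.90.

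**Figure D1:**
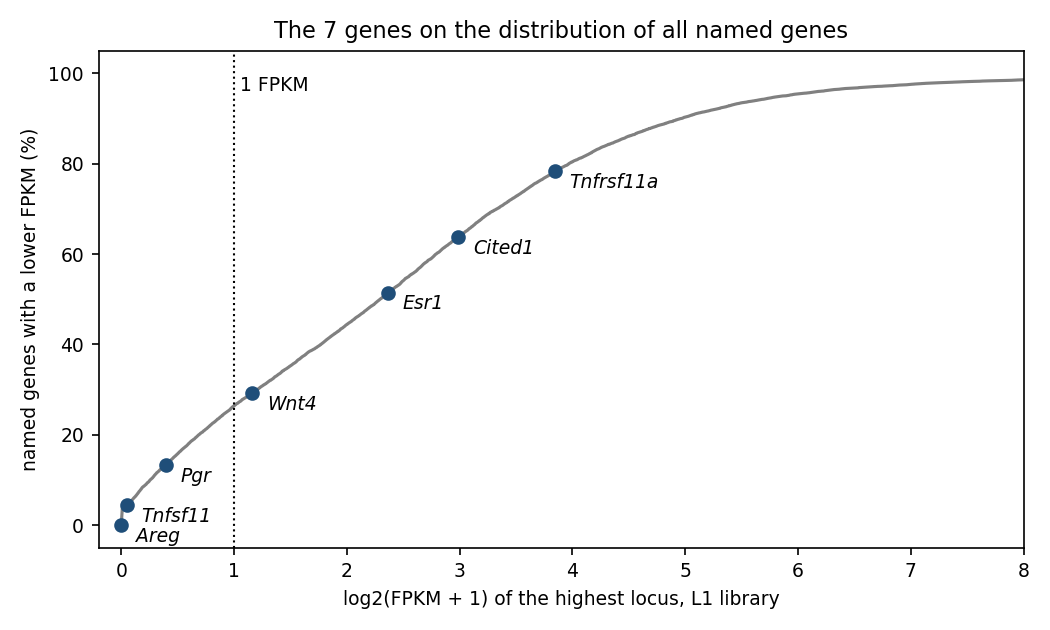
Share of named genes with a lower FPKM (y axis, percent) against log2(FPKM + 1) of the highest locus (x axis) in the L1 library. The grey line is all 14847 named genes and the blue points are the 7 genes; Esr1, Cited1, Wnt4 and Tnfrsf11a lie to the right of the dotted line at 1 FPKM, and Pgr, Tnfsf11 and Areg to its left.

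Neighbours in this order were separated by unequal steps. Tnfrsf11a stood 1.93 times above Cited1, and Cited1 1.67 times above Esr1. The step from Esr1 to Wnt4 was 3.36 times, that from Wnt4 to Pgr 3.95 times and that from Pgr to Tnfsf11 9.51 times. With the single-strand locus of Pgr, described below, the last 2 steps were 7.28 and 5.17 times. No error can be attached to these steps. They also depend on how the loci of a gene are combined, the larger ones included. With the mean over loci in place of the highest, Tnfrsf11a was at 5.24 FPKM and Cited1 at 6.93, so that their places were exchanged. By the same mean, Wnt4 was at 0.26 FPKM and Pgr at 0.24, nearly level.

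The loci of a gene were far from equal. Cited1, Tnfsf11 and Areg had a single locus, and the other 4 genes had 18 between them. Esr1 had 6, with 4.16 FPKM in the highest and 0.70, 0.58, 0.42, 0.42 and 0 in the rest. Of the 7 loci of Wnt4, the highest stood at 1.24 FPKM, the next at 0.60 and 5 were listed at 0. The 3 loci of Tnfrsf11a stood at 13.3, 1.23 and 1.14 FPKM, and the 2 of Pgr at 0.31 and 0.17. The highest locus thus carried 84.9% of the summed FPKM of Tnfrsf11a, 67.3% of that of Wnt4, 66.4% of that of Esr1 and 64.8% of that of Pgr.

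The numbering of the loci separated them into 2 kinds. On each chromosome the locus numbers ran first through genes of the plus strand, then through genes of the minus strand and last through a stretch in which both strands were mixed. The runs were placed by 7726 genes with a single locus and a known strand in RefSeq (GRCm38.p6). Among these genes, the plus runs held 99.5% plus-strand genes and the minus runs 99.7% minus-strand genes. As the same strands set the cuts, these 2 shares are partly fixed by the placing. The mixed runs held 47.3% plus-strand genes, from only 129 genes. Mixed runs held 38.6% of all loci. Their loci with a symbol had a median of 0.53 FPKM, against 3.26 in the single-strand runs, and 50.4% of their loci had no symbol, against 12.5%. What kind of transcript the mixed runs hold was not tested.

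Of the 21 loci of the 7 genes, 14 lay in mixed runs, and none of these exceeded 1.23 FPKM. They were 5 loci of Esr1, 6 of Wnt4, 2 of Tnfrsf11a and 1 of Pgr. In Esr1, Wnt4 and Tnfrsf11a the highest locus lay in a single-strand run. In Pgr it did not: the locus at 0.31 FPKM lay in the mixed run of chromosome 9 and the locus in the plus run, the strand of the gene, stood at 0.17. Among all 2912 genes with loci in both kinds of run, the highest lay in a mixed run in 14.7%. The level of Pgr is therefore 0.17 FPKM when mixed runs are left out, and those of the other 6 genes stay as they are.

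**Figure D2:**
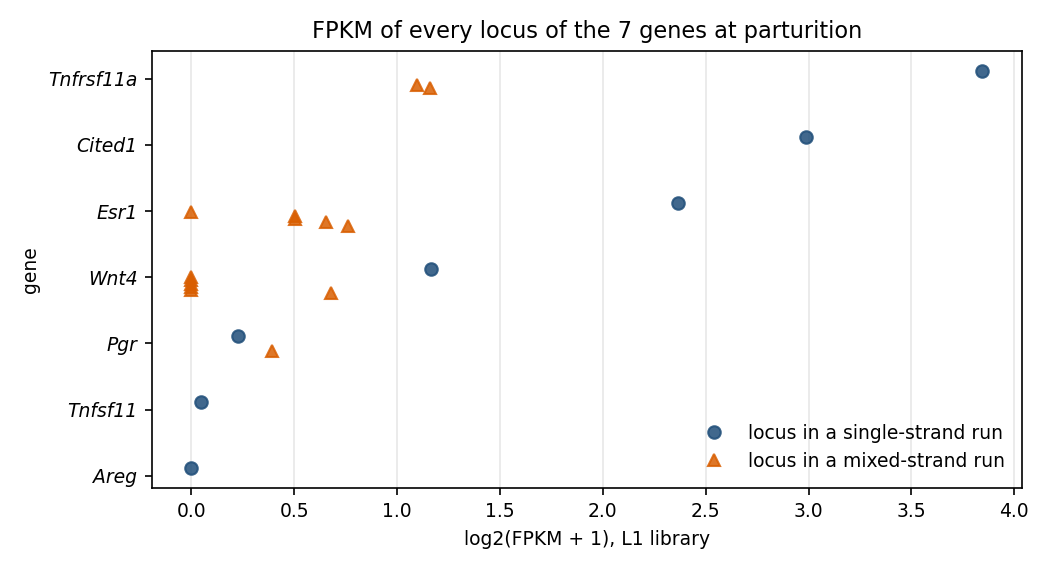
log2(FPKM + 1) in the L1 library (x axis) of each of the 21 loci of the 7 genes (y axis, in order of their highest locus). Blue circles are loci in single-strand runs of locus numbers and orange triangles loci in mixed runs; the triangle lies to the right of the circle in Pgr only.

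Whole mammary gland at parturition is dominated by milk transcripts, and all levels here are relative to them. The 6 markers of milk-producing cells (Csn2, Csn1s1, Wap, Csn3, Lalba and Elf5) took 37.8% of the summed FPKM of named genes, and the 7 genes together 0.00286%. The keratin genes Krt19, Krt18 and Krt8 of the luminal epithelium stood at 244, 179 and 129 FPKM and Krt7 at 5.72. In the basal and myoepithelial list, 7 of 7 markers with a value reached 1 FPKM, against 73.6% of all named genes, from Trp63 at 3.37 to Cnn1 at 59.0. The labelled tissue thus showed its defining epithelial genes. In a bulk sample, fewer cells of a type and less RNA per cell cannot be told apart, which holds for every low value below.

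The nuclear receptors come first in the relay. Esr1 stood at 4.16 FPKM, in the middle of 25 nuclear receptor genes with a value, with 12 above and 12 below. It exceeded Esr2, the gene of estrogen receptor beta, at 0.085 FPKM by 48.9 times; the only locus of Esr2 lay in a mixed run. Pgr, at 0.31 FPKM, was below 22 of the other 24 receptor genes. Esr1 was 13.3 times as high as Pgr, or 24.4 times with the single-strand locus of Pgr.

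Several other nuclear receptors were far higher than both. The highest were the vitamin D receptor gene Vdr at 72.7 FPKM, the oxysterol receptor gene Nr1h2 at 41.4, the glucocorticoid receptor gene Nr3c1 at 34.8 and Esrra, an orphan receptor of energy metabolism, at 29.3. Nr3c1, whose ligand sustains milk secretion, stood 8.35 times above Esr1 and 111 times above Pgr, or 204 times with its single-strand locus. Of the 23 receptor genes besides Esr1 and Pgr, 16 reached 1 FPKM, against 73.6% of all named genes. Their median was 4.25 FPKM, close to the 3.90 of all named genes.

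Membrane proteins linked to progesterone split into 2 groups. Pgrmc1 and Pgrmc2, widely expressed haem-binding proteins first described as membrane progesterone receptors, stood at 26.04 and 17.6 FPKM, and Pgrmc1 was 83.2 times as high as Pgr, or 153 times with the single-strand locus of Pgr. The membrane progestin receptor genes Paqr7, Paqr5 and Paqr8 stood at 0.66, 0.22 and 0.13 FPKM, and the membrane estrogen receptor gene Gpr30 at 0.099.

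Genes of the proteins that serve steroid receptors had a higher median than the receptor genes. All 18 coregulator and chaperone genes had a value, 17 reached 1 FPKM, against 73.6% of all named genes, and their median was 9.09 FPKM. The chaperone genes Hsp90aa1 and Hsp90ab1 stood at 125 and 123 FPKM, the immunophilin gene Fkbp4, which assists progesterone receptor folding, at 82.0, and the cochaperone gene Ptges3 at 61.0. The exception under 1 FPKM was Foxa1, the pioneer factor that opens chromatin for the estrogen receptor, at 0.64 FPKM. Gata3, another luminal partner of Esr1, stood at 24.9 FPKM; it was singled out after its value was seen.

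Known response genes other than the 7 did not share 1 level. Of 11 with a value, 9 reached 1 FPKM, against 73.6% of all named genes, and the median was 6.36 FPKM. Xbp1, a factor of secretory cells as well as an estrogen target, stood at 103 FPKM, the cyclin gene Ccnd1 at 28.0, Pdzk1 at 20.2 and Myc at 13.2. All 4 are also expressed in cells without the estrogen receptor. By contrast, the estrogen receptor cofactor gene Greb1 stood at 0.16 FPKM and the calcitonin gene Calca, a progesterone target of the luminal cells, at 1.96; both were singled out after their values were seen.

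Cited1 was the highest of the 7 genes after Tnfrsf11a, at 6.93 FPKM from its single locus. Within the CITED family, transcriptional coregulators that bind CBP and p300, it was nevertheless the lowest: Cited2 stood at 48.7 FPKM, 7.03 times as high, and Cited4 at 42.9 FPKM, 6.19 times as high. All 8 family and partner genes with a value reached 1 FPKM, against 73.6% of all named genes. Among them were the AP-2 gamma gene Tcfap2c at 27.7 and the TGF-beta effector gene Smad3 at 10.6. Cited1 also exceeded Esr1, its partner in luminal cells, by 1.67 times.

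Among the secreted factors, Areg was listed at 0 at its only locus. Of 10 other EGF ligand genes listed, 7 had a value. Areg was the lowest of the 8 with a value and the only 1 of them at 0. Like Areg, 599 named genes were listed at 0, and in a table without counts an exact 0 can also be a failed estimate, so no fold was formed. Egf, the ligand abundant in milk, stood highest at 18.7 FPKM, followed by the neuregulin genes Nrg1 at 3.19, Nrg4 at 2.55 and Nrg2 at 1.25. Hbegf stood at 0.99 FPKM, Tgfa at 0.25 and Btc at 0.18. These 3 ligands lay below 1 FPKM and share the EGF receptor with amphiregulin, as does Egf, the highest of the family.

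Of 9 genes for EGF family receptors and for the release of EGF ligands and its control, 8 reached 1 FPKM, against 73.6% of all named genes. Their median was 6.03 FPKM, and not all of them act on amphiregulin. The protease gene Adam10 stood at 18.0 FPKM, the protease inhibitor gene Timp3 at 14.5, and Rhbdf1 and Rhbdf2, rhomboid-like proteins that carry the amphiregulin sheddase to the cell surface, at 14.1 and 7.67. Adam17, that sheddase itself, stood at 2.80 FPKM and Egfr, the receptor of amphiregulin, at 3.91; these 2 were named after their values were seen.

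Wnt4, at 1.24 FPKM, was among the higher Wnt ligands. Of 13 Wnt genes with a value it stood in the third place, below Wnt5b at 5.41 FPKM, which was 4.37 times as high, and Wnt5a at 1.28, at 0.96 of whose level it stood. Wnt9b and Wnt10b followed at 1.14 and 1.09 FPKM. Of 18 other Wnt genes listed, 12 had a value. Over these 12 the median was 0.43 FPKM, and 4 reached 1 FPKM, against 73.6% of all named genes. The order of Wnt4 and Wnt5a changed with the sum over loci, which put Wnt4 at 1.84 FPKM, 1.43 times the level of Wnt5a.

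Wnt reception was uneven. Of 25 genes with a value, 13 reached 1 FPKM, against 73.6% of all named genes, and the median was 1.02 FPKM. Wls, which carries Wnt proteins to the surface, stood at 39.6 FPKM, the R-spondin receptor gene Lgr4 at 28.0, the coreceptor gene Ryk at 15.6 and Lrp6 at 9.27. Chosen after their values were seen, Rspo1, the R-spondin that acts with Wnt4 on basal cells, stood at 1.02 FPKM, and the Wnt response genes Axin2 and Lef1 at 0.13 and 0.

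The RANK receptor and its ligand lay far apart. Tnfrsf11a stood at 13.3 FPKM, above 13 of the other 14 TNF receptor genes with a value and below Ltbr at 18.5. Tnfrsf21 at 12.8, Fas at 8.32 and Tnfrsf10b at 1.78 came after it, and the list without Tnfrsf11a had a median of 1.03 FPKM. That list named 19 receptor genes, of which 14 had a value. Tnfsf11 stood at 0.033 FPKM, below 10 of the other 12 TNF ligand genes; the highest of these were Tnfsf13 at 4.94, Tnfsf10 at 1.56, Ltb at 0.80 and Tnfsf13b at 0.79. Of 16 other TNF ligand genes listed, 12 had a value. These were low as a group, with a median of 0.11 FPKM and 2 of 12 at or above 1 FPKM, against 73.6% of all named genes.

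Receptor thus exceeded ligand by 405 times in FPKM. The ligand level exceeded only 0.41% of named genes above 0, and without counts no error can be attached to a ratio over it. Tnfrsf11b, the gene of the soluble decoy receptor osteoprotegerin that captures the RANK ligand, stood at 0.73 FPKM, 22.3 times above Tnfsf11 and 18.2 times below Tnfrsf11a. Lymphocytes and myeloid cells also use this pair. Lymphocyte markers were low, with 1 of 8 reaching 1 FPKM (Ptprc at 2.47), against 73.6% of all named genes, and a summed level of 4.90 FPKM. Of 5 myeloid markers with a value 4 reached 1 FPKM, against 73.6% of all named genes, from Itgam at 0.54 to Cd14 at 98.5. Their summed level of 166 FPKM lay mostly in Cd14 and Lyz2, the latter at 62.0. The rest were far lower: Csf1r exceeded 44.4% of named genes, Emr1, at 1.97 FPKM, 36.6% and Itgam 18.6%. The part of lymphocytes and myeloid cells in the level of Tnfrsf11a was not tested.

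**Figure D3:**
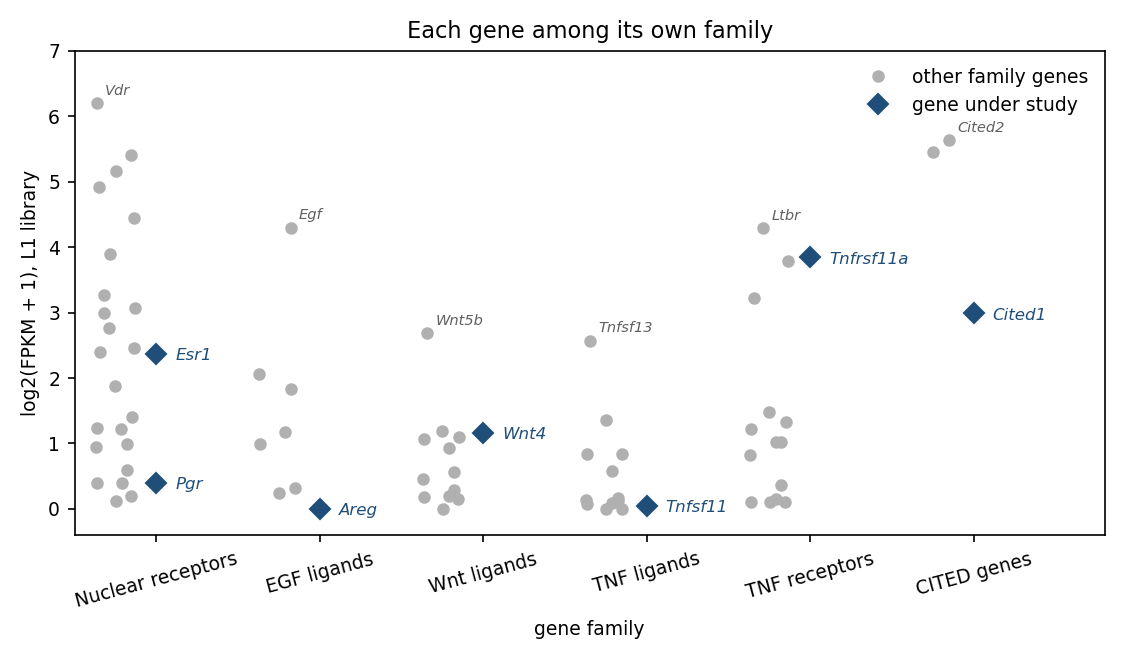
log2(FPKM + 1) of the highest locus in the L1 library (y axis) for the families of the 7 genes (x axis). Blue diamonds are the 7 genes and grey points the other family genes with a value, the highest of which is named. Sideways offsets only separate the points. Tnfrsf11a and Wnt4 lie near the top of their families, Esr1 in the middle, and Pgr, Areg and Tnfsf11 at or near the bottom.

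The start regions of the RANK pair are shown because the levels of these genes lay far apart, and they differ in CG content. The 250 bases before the start site are given from RefSeq (GRCm38.p6), 5′ to 3′ on the strand of the gene, with each CG dinucleotide in capitals. That of Tnfrsf11a lies at chr1:105780473-105780722 on the plus strand and that of Tnfsf11 at chr14:78308044-78308293 on the minus strand.
Tnfrsf11a: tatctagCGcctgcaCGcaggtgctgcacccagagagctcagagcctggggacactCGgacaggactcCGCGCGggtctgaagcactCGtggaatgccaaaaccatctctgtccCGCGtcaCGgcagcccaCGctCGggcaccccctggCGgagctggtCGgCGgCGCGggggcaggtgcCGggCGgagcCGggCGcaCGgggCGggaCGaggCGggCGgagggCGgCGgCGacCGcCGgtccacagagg
Tnfsf11: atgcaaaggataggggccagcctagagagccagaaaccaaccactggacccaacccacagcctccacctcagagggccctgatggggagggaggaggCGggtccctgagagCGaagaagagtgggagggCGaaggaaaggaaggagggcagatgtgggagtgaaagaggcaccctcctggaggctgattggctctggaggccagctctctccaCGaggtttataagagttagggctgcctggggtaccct
The first holds 31 CG dinucleotides with a G and C content of 73.6%, and the second 4 with 60.4%. Relative to what their base composition would give, the CG ratio is 0.92 in Tnfrsf11a, higher than in 90.0% of 32851 RefSeq windows, and 0.18 in Tnfsf11, higher than in 27.4%.

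The other genes fell on both sides. Wnt4 had a CG ratio of 1.00 and Areg of 0.74, while Pgr had 0.34 and the 2 windows of Esr1 0.28 and 0.32. The 3 windows of Cited1 had 0.63, 0.45 and 1.13. With a ratio of 0.6 as the boundary and the highest window of each gene, Tnfrsf11a, Wnt4, Areg and Cited1 were CG-rich and 3 of these 4 reached 1 FPKM; of the CG-poor Esr1, Pgr and Tnfsf11, 1 did. Among all named genes with a window the shares at or above 1 FPKM were 83.5% of 6780 CG-rich and 59.0% of 3628 CG-poor genes. Areg, CG-rich and listed at 0, lay outside the larger share of its class, as did the CG-poor Pgr and Tnfsf11. Esr1, CG-poor and at 4.16 FPKM, lay within the larger share of its class. This split was added after the values were seen, and 7 genes are too few to describe a relation.

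Downstream of RANK, all 17 genes of the list had a value, 15 reached 1 FPKM, against 73.6% of all named genes, and the median was 5.13 FPKM. Elf5, the alveolar factor reported downstream of RANK and also of prolactin, stood at 577 FPKM, Id2 at 163, the NF-kappaB inhibitor gene Nfkbia at 66.9 and Ccnd1 at 28.0. The adaptor gene Traf6, named after its value was seen, stood at 7.98 FPKM. Under 1 FPKM were the kinase gene Map3k14 at 0.91 and Tnfrsf11b.

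The list taken as markers of the hormone-sensing luminal cells beyond the 7 genes gave no single level. Whether each of its genes, Aldh1a3 among them, is particular to those cells was not tested. Of 10 markers, 6 reached 1 FPKM, against 73.6% of all named genes, and the median was 1.39 FPKM. The highest, Cd24a at 627 FPKM, Ly6a at 47.3, S100a6 at 30.5 and Prlr at 17.1, are also expressed by other cells of the gland. The other 6 stood at 1.49 for Tph1, 1.28 for Wnt5a, 0.96 for Aldh1a3, 0.64 for Foxa1, 0.57 for Prom1 and 0.44 for Cxcl15. Fibroblasts and adipocytes also express Esr1: the fibroblast markers ran from Pdgfra at 2.40 to Dcn at 82.6 FPKM, with a summed level of 241, and the adipocyte markers from Lep at 5.51 to Fabp4 at 723, with a summed level of 1431. None of these 12 was at 0, where only 599 of all 14847 named genes lay. The part of fibroblasts and adipocytes in the level of Esr1 was not tested.

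The prolactin pathway, which drives milk gene expression, had the highest median of the 13 partner lists, 17.1 FPKM over 9 genes. Of these, 8 reached 1 FPKM, against 73.6% of all named genes. Its highest genes were the growth hormone receptor gene Ghr at 55.6 FPKM, Stat5a at 41.8, the feedback inhibitor gene Cish at 33.2 and Stat5b at 17.6. Stat5a and Prlr therefore stood above Esr1 and Pgr in this library. In all, 10 of the 13 lists had a median at or above 1 FPKM. Only 7 had a median above the 3.90 FPKM of all named genes. The lists with a median under 1 FPKM were Wnt ligands, TNF ligands and membrane steroid receptors.

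**Figure D4:**
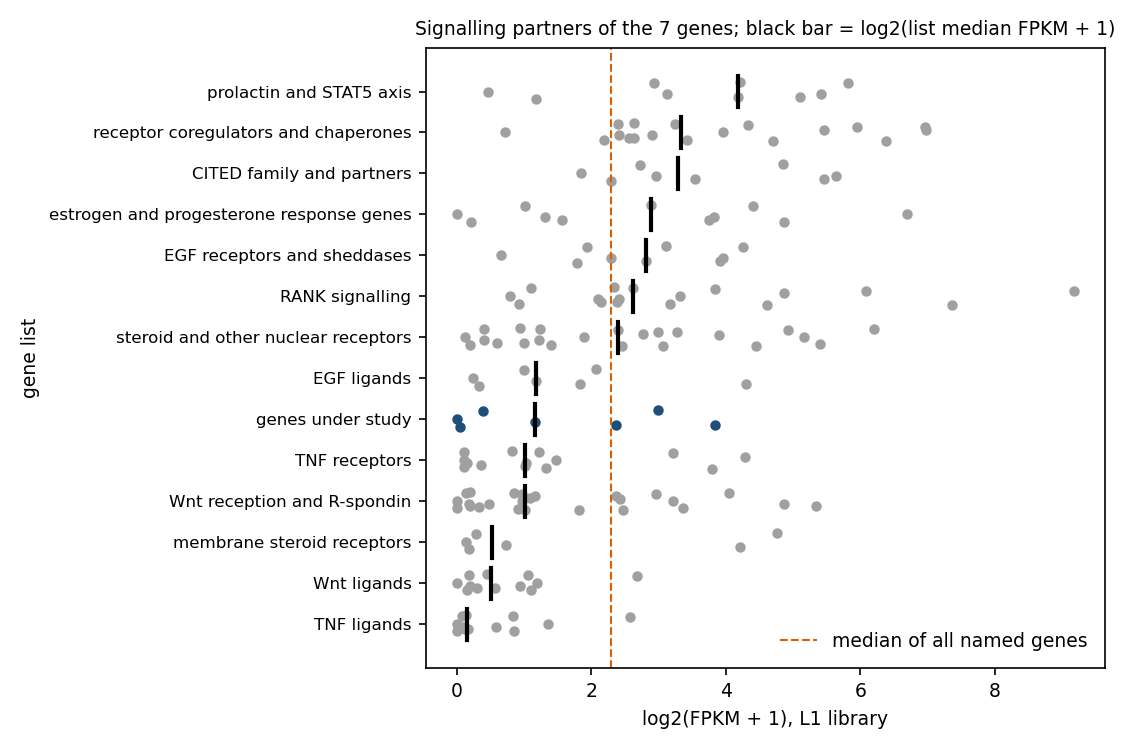
log2(FPKM + 1) in the L1 library (x axis) of the genes of each list (y axis, in order of list median). Grey points are genes, blue points the 7 genes, black bars list medians and the dashed line the median of all named genes, 3.90 FPKM; the TNF and Wnt ligand lists have the lowest bars and the prolactin list the highest.

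Matches to hormone and STAT5 motifs were few. All 7 genes matched a RefSeq window, 10 windows in all, each of 300 bases from 250 before to 50 after the start. The STAT5 motif TTCNNNGAA, which reads the same on both strands, was found in 1 of the 10, in the second window of Esr1, against 8.30% of all windows. The core repeat AGGTCA of the estrogen response element, searched on both strands, was found in 1, in a window of Cited1, against 16.3%. The full estrogen response element, which contains that repeat, and the progesterone response element, both searched on both strands as inverted repeats with a gap of 3 bases, were in none of the 10, and in 0.055% and 0.47% of all windows. Both matches are shown in capitals with 30 bases to either side, at chr10:4709940-4710008 on the plus strand for Esr1, where the match starts 188 bases before the start site, and at chrX:102250958-102251023 on the minus strand for Cited1, where it starts 217 bases before it and lies on the opposite strand.
Esr1: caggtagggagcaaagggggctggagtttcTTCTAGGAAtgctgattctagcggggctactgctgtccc
Cited1: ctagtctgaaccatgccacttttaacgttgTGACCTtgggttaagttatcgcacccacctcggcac
A match describes the letters only, and whether STAT5A or the estrogen receptor binds there was not tested. The deposited STAT5A and H3K4me3 lists are in mm9, for which no gene positions were used here, so they were not set beside these windows.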

How the data were processed

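RNA of 1 library of mammary gland at parturition (L1) was analysed. Per the labels, poly(A) RNA was made into TruSeq libraries and sequenced on an Illumina HiSeq. The submitters' processing notes name CASAVA, TopHat and the build mm9; tool versions and the expression software are not given in these sources. The authors deposited FPKM per assembled locus, 30305 in all: 21958 with 1 symbol, 117 with several and 8230 with none. The table holds no counts, so depth and counting error are unknown. Expression values were given for L1 only, so none could be analysed for P6 or P13.

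Loci with 1 symbol were grouped by symbol (14847 genes), and a gene took its highest locus; no filter on low values was applied. A percentile is the share of named genes with a lower FPKM. Lists were matched by symbol or a unique RefSeq synonym. Listed genes without a match had no value and could not be placed. The genes and lists were chosen with earlier results of these data known. Named are the 7 genes, the 4 highest of each list, and genes of the planned ratios; all others were chosen after their values were seen. Runs of locus numbers were placed by strand and by falls of over 5 Mb in position, and that step was tested on simulated data. Plots use log2(FPKM + 1). Python 3.11.15, pandas 2.3.3, numpy 2.4.6 and matplotlib 3.10.9 were used. Some planned single-gene values are not reported here.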

Additional observations from a re-analysis of the deposited data

How the results depend on the processing

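No paired analysis was possible because the expression values come from 1 library, and for the same reason no replicate could be left out. Depth is unknown, so levels such as 0.033 FPKM for Tnfsf11 have no counting interval. Cited1, Tnfsf11 and Areg have 1 locus, and their FPKM was the same under every way of combining loci. With the sum over loci, Tnfrsf11a came to 15.7 FPKM, Esr1 to 6.26, Wnt4 to 1.84 and Pgr to 0.48, and the order of the 7 genes held; with the mean they came to 5.24, 1.04, 0.26 and 0.24 FPKM and 2 genes, Tnfrsf11a and Cited1, exchanged places. Without loci of mixed runs, an alternative added after the data were seen, as was the order by the mean, Pgr stood at 0.17 FPKM and the other 6 did not move; the ratio to Pgr was then 24.4 for Esr1, 204 for Nr3c1 and 153 for Pgrmc1, and that of Esr1 to Esr2 could not be formed.

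Percentiles with the sum over loci were 79.8 for Tnfrsf11a, 61.3 for Cited1, 58.8 for Esr1, 33.4 for Wnt4 and 16.7 for Pgr. With the mean they were 61.6 for Tnfrsf11a, 67.9 for Cited1, 30.1 for Esr1, 13.2 for Wnt4 and 12.5 for Pgr. Among named genes above 0 they were 77.4 for Tnfrsf11a, 62.2 for Cited1, 49.5 for Esr1, 26.3 for Wnt4, 9.69 for Pgr and 0.41 for Tnfsf11. Among genes with 1 locus they were 77.3 for Tnfrsf11a, 31.7 for Wnt4, 15.8 for Pgr and 5.48 for Tnfsf11.

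At a threshold of 5 FPKM 2 of the 7 genes passed, and at 0.5 FPKM or with the sum over loci 4 did, as at 1 FPKM. With the sum over loci the ratio of Tnfrsf11a was 477 to Tnfsf11 and 21.4 to Tnfrsf11b, that of Esr1 was 73.6 to Esr2 and 12.96 to Pgr, that of Nr3c1 was 5.55 to Esr1 and 71.9 to Pgr, that of Wnt5b to Wnt4 was 3.05, that of Wnt4 to Wnt5a 1.43 and that of Pgrmc1 to Pgr 53.9. Of the 13 list medians, 3 changed with the sum over loci. Leaving out genes under 1 FPKM can only raise a list median or keep it, and 12 were higher.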
